A study of Mus musculus with 10 samples.

Results

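Ribosomal protein genes encode the structural proteins of the cytoplasmic ribosome. Each protein belongs to the large subunit (Rpl genes and the stalk genes Rplp0 to Rplp2) or the small subunit (Rps genes and Rpsa). Most are needed in equal amounts in every growing cell. The genes are therefore classed as housekeeping genes, their promoters mostly overlap CpG islands, and CpG islands at active promoters are usually free of DNA methylation. DNA methylation was read by RRBS (reduced representation bisulfite sequencing), in which a restriction enzyme selects fragments rich in CpGs and bisulfite turns unmethylated cytosines into bases read as T. The material was testis DNA of F2 mice, with 5 libraries in the control group and 5 in the arsenic group. The labels give neither the ancestor or generation that was treated nor the dose, strain or age, and they do not say whether each library is 1 animal. The p-values therefore measure the spread between libraries, which may be technical.

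The members were the 72 autosomal protein-coding genes whose symbols follow the naming pattern of these proteins, 43 of the large and 29 of the small subunit, out of 20665 autosomal protein-coding genes. Retrogene-derived and other paralogs with symbols ending in l, with or without a final digit, and the ribosomal S6 kinases, were left out. For each gene end, reads of all covered CpG cytosines within 1000 bp on either side were pooled, and an end was measured if it held at least 3 distinct CpGs. Of the 144 gene ends, 83 on 68 genes were measured. For 52 members the strand was known, which gave 48 measured start windows and 10 measured windows at the 3 prime end. The other 20 members gave 25 measured windows that are named here by their lower or higher coordinate. Rpl27a, Rps2, Rps27 and Rps28 had no measured end. The measured windows held 3 to 72 CpGs, and 3039 cytosines on 2127 CpGs lay in them. In 17 of them the end of another protein-coding gene also lay in the window, and the start and end windows of Rpl28, Rpl41 and Rps21, and both windows of Rps29, shared cytosines.

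Read counts are summed over cytosines here, so that a read covering several CpGs is counted at each of them. The coverage of all cytosines summed to 69771871 to 100355708 per library, and the median coverage of member cytosines was 24 to 40 reads. A cytosine at such a coverage with no methylated read could have a level of up to 12.5% at the lowest of these medians and 7.50% at the highest (3 counts of the total). These limits cover counting error only, since reads carry no molecular identifiers. The coverage of a whole window summed to 50 to 5604, which is more than its number of separate reads. Control libraries 4 and 5 stood apart: 16.9% and 18.8% of all cytosines were fully methylated in them, against 11.1% to 14.9% in the other 8. As a check of the tissue, the ends of 9 measured germ cell genes from a marker list had a mean level of 22.4% ± 1.62 (SD, 5 libraries) in control and 19.9% ± 2.55 in arsenic, and those of 6 somatic testis genes 32.0% ± 1.20 and 32.5% ± 0.907. The median gene lay at 20.5% among the germ cell genes and at 4.15% among the somatic genes, so that the mean of the latter rests on few genes and does not tell these cell types apart. The DNA came from whole tissue, so a change in cell types and a change within a cell type cannot be told apart.

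Promoters of 5 genes are printed because the results below turn on them: 2 CpG-dense ones at starts with many covered CpGs, the start with the smallest p, and the starts of the 2 genes with the highest windows. The sequences are RefSeq's on GRCm38.p6 and run from 250 bases before an annotated start to 50 bases from it on, 5′ to 3′ on the gene's strand. Capitals mark CpGs covered in all 10 libraries.
Rpl28 (chr7:4792715-4793014, plus strand): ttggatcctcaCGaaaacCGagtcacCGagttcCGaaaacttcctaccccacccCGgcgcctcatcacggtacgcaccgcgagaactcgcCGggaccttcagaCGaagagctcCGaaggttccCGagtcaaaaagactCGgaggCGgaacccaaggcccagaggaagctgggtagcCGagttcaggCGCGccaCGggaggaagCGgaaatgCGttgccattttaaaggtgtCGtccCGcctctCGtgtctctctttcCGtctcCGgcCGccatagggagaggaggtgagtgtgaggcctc
Rps19 (chr7:24884342-24884641, plus strand): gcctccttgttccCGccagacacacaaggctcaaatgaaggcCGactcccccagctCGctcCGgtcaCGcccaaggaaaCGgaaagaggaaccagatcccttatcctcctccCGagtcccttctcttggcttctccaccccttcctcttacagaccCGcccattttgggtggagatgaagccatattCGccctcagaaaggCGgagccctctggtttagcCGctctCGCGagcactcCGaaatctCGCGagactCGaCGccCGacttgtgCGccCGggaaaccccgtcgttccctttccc
Rpl4 (chr9:64173137-64173436, plus strand): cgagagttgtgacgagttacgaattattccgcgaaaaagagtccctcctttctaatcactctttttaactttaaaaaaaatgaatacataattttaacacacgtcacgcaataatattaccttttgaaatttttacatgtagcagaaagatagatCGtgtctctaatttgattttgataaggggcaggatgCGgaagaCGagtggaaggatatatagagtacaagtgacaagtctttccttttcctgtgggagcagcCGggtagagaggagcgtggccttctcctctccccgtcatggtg
Rps24 (chr14:24490503-24490802, plus strand): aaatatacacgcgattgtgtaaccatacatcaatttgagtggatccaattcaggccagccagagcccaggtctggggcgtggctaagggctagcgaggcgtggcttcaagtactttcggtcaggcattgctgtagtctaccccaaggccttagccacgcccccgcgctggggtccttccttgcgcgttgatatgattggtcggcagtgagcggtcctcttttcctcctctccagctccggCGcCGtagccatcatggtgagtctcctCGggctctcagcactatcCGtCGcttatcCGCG
Rpl22, upstream start (chr4:152324186-152324485, plus strand): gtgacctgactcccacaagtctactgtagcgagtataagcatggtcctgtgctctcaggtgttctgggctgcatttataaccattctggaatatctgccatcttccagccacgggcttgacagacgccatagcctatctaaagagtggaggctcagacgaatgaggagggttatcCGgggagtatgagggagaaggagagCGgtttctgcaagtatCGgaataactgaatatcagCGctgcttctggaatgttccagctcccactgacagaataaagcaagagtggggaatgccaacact
Rpl22, downstream start (chr4:152325476-152325775, plus strand): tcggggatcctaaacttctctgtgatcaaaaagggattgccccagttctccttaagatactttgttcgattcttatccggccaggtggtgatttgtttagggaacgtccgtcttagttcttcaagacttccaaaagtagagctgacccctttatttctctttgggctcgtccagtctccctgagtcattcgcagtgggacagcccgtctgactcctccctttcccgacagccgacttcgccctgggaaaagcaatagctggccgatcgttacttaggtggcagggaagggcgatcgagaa
In Rpl28, which encodes a large subunit protein, 23 of 29 CpGs were covered, at a mean level of 1.47% over the 10 libraries. In Rps19, the gene most often mutated in Diamond-Blackfan anaemia, 21 of 23 were covered, at 1.81%. The Rps19 promoter had 3.20% ± 3.51 in control and 0.418% ± 0.297 in arsenic, with control libraries 2 and 5 at 6.57% and 7.49% and the other 8 libraries under 1%. That of Rpl28 had 2.07% ± 2.33 and 0.871% ± 0.672, with control library 4 highest at 5.90% and the others at 0.241% to 2.69%. In Rpl4, 4 of 13 CpGs were covered, at 2.21%, with 16.2% in control library 4 and at most 2.05% in the others. In Rps24, 7 of 21 were covered, at 0.343%. The upstream promoter of Rpl22 had 4 of 8 CpGs covered, at 93.6%, and its downstream promoter, with 15 CpGs, had none covered.

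RefSeq's promoter table gave 62 such 300-base promoters for the 52 members of known strand, and all 389 covered CpGs within them fell on the letters CG, so the sequences and the deposited positions share 1 build. Covered CpGs were found in 38 promoters of 33 genes. The median promoter level was 1.65%, 37 of the 38 lay under 5%, and the upstream promoter of Rpl22 was the exception. Sequence features that are widely described at these promoters were searched. The ETS factor motif CCGGAAG, on either strand, was in the promoters of 22 of 52 members (42.3%), against 13.3% of 16457 genes in the table. The YY1 motif AAGATGGC was in 5 (9.62%, against 3.59%), and the GC box GGGCGG in 31 (59.6%, against 50.3%). None of these 3 strings contains another. A C followed by 4 pyrimidines exactly at the annotated start, the form in which the 5′ terminal oligopyrimidine tract of translation-regulated mRNAs begins, was found in 13 members (25.0%, against 2.70%), among them Rpl28, whose transcript begins ctctttccgt. In the members, 9 covered cytosines lay inside ETS matches, with a mean level of 6.20% in control and 4.49% in arsenic, and 19 lay inside GC boxes, with 1.41% and 2.51%. These matches describe letters in a fixed window and not bound sites.

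The starts of ribosomal protein genes were nearly unmethylated in both groups. The mean over the 48 start windows was 6.41%, 6.05%, 6.41%, 7.05% and 6.47% in control libraries 1 to 5 and 6.13%, 6.38%, 6.55%, 6.35% and 7.29% in arsenic libraries 1 to 5. The groups overlapped, with means of 6.48% ± 0.361 and 6.54% ± 0.445, and neither was apart from the other. The median start lay at 3.40%, beside 2.74% for 9974 starts of other genes. Of the member starts, 32 of 48 (66.7%) lay under 5%, beside 73.1% of other starts, and 2 of 48 (4.17%) lay over 20%, beside 12.8%. The lowest was that of Rps7, a small subunit protein, which had no methylated read in any control library and 1.12% in arsenic library 3 alone. The coverage of its 9 cytosines summed to 90 to 358 per library, and its most deeply covered cytosine had 10 reads in the shallowest library and 40 in the deepest. Counted by that cytosine alone, 0 methylated reads allow a level of up to 30.0% at the lowest and 7.50% at the highest depth. Large subunit genes had a median start of 4.27% in control and 4.88% in arsenic, small subunit genes 2.72% and 3.23%, and the 2 measured starts of the stalk genes, Rplp0 and Rplp2, lay at 4.74% and 3.38%.

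**Figure D1:**
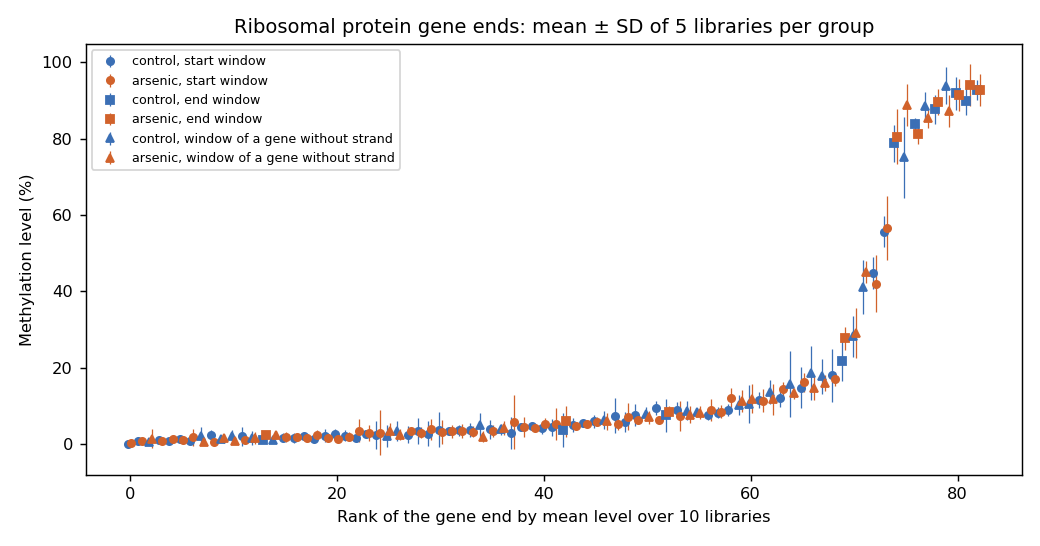
Methylation level (percent) of the 83 measured gene ends, ordered by their mean over 10 libraries. Each end has a point for the mean of the 5 control libraries (blue) and of the 5 arsenic libraries (orange), with bars of 1 SD; circles are start windows, squares 3 prime end windows and triangles windows of genes without strand. Only 2 starts, those of Rps24 and Rpl22, lie over 20%, and at most starts the points of both groups lie less than 1 percentage point apart (30 of 48).

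Windows at the 3 prime end were mostly methylated. Their median was 81.1%, beside 87.3% for 3842 end windows of other genes, and 7 of 10 lay over 20%. The 3 highest belonged to Rpl38 (92.7% ± 2.57 in control, 92.7% ± 4.14 in arsenic), Rpl7a (89.8% ± 3.54 and 94.1% ± 5.57) and Rps24 (91.9% ± 4.27 and 91.5% ± 4.22). Rpl38 is the large subunit protein lost in the Tail-short mouse, Rpl7a a large subunit protein of the kink-turn RNA-binding family, and Rps24 another gene mutated in Diamond-Blackfan anaemia. The 3 lowest belonged to Rps21 (0.924% ± 0.586 and 2.19% ± 1.01), Rps18 (3.64% ± 4.36 and 5.85% ± 3.95) and Rpl41 (7.46% ± 4.32 and 8.44% ± 1.38). Rps21 and Rps18 encode small subunit proteins and Rpl41 the very short peptide of the large subunit. Each of these 3 low windows also held an end of another gene, Cables2, B3galt4 and Zc3h10 in that order. The high window of Rpl7a did so too, with an end of Surf1. All 38 cytosines of the low Rps21 window also lay in the start window of Rps21. That window therefore held no cytosine away from the start and does not describe a separate 3 prime end. Of the 48 cytosines of the low Rpl41 window, 10 also lay in the start window of Rpl41.

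The 25 windows of genes without strand had a median of 8.14%. For 5 of these genes both ends were measured. Rps14 lay at 2.06% ± 1.54 at its lower and 88.7% ± 3.47 at its higher coordinate in control. Rpl36, whose windows each also held an end of another gene (Micos13 and Lonp1), lay at 3.79% ± 1.38 and 3.34% ± 2.60. These values show 1 low and 1 high end for Rps14, as for genes of known strand, and low values at both ends for Rpl36.

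Methylation of these genes depended on the distance from the start. Each cytosine was placed by the RefSeq start that had the most covered CpGs, a choice made after seeing the data. It moves Rpl22 to its downstream start and leaves out the methylated CpGs around its upstream one, described below. The level was lowest just after the start, 1.69% ± 0.619 in control and 1.53% ± 0.310 in arsenic from 0 to 200 bp (398 cytosines of 30 genes), beside 4.27% ± 0.705 and 3.85% ± 0.203 for other genes. From -600 to 600 bp no member had a 200 bp bin over 20%, whereas 6.95% to 12.5% of other genes did. Outside that span the members had higher levels. In control these were 9.96% ± 0.955 from 600 to 800 bp and 26.3% ± 1.09 from 800 to 1000 bp into the gene. Other genes had 7.32% ± 0.651 and 11.5% ± 0.648. In the last bin 11 of 20 members (55.0%) lay over 20%, beside 26.6% of other genes. Arsenic libraries of the members had 10.9% ± 1.16 and 25.9% ± 1.91 in these 2 bins, and the groups overlapped in both. The highest members in the last bin were Rpl6 at 78.2%, Rpl28 at 71.6% and Rps19 at 61.2%, the lowest Rpl5 at 5.84%, Rpl19 at 6.78% and Rpl35a at 7.49%. Placed by the gene table's starts instead, which keep the upstream start of Rpl22, the members had 4.04% in control and 3.90% in arsenic from -200 to 0 bp, beside 4.36% and 3.96% for other genes. From 0 to 200 bp they had 2.98% and 2.70%, beside 4.44% and 4.02%, and from 800 to 1000 bp 23.0% and 23.7%, beside 8.82% and 8.24%. The 6 genes above were named for their rank in this bin after the values were seen. The comparison with other genes is a description, since bins hold different genes and genes share libraries.

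**Figure D2:**
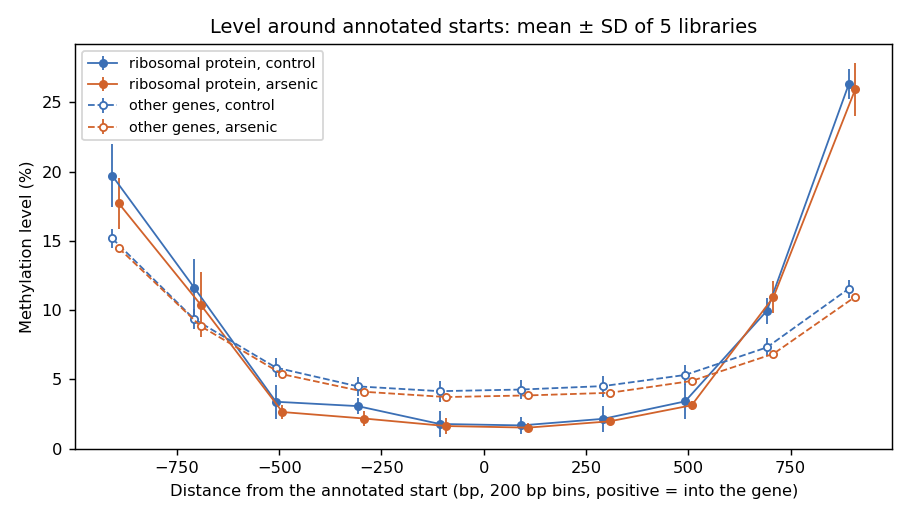
Mean methylation level (percent) of CpG cytosines in 200 bp bins by distance from the annotated start (bp, positive values into the gene). Filled points are ribosomal protein genes, open points all other protein-coding genes, blue control and orange arsenic, with bars of 1 SD over 5 libraries. The members lie below the other genes between -600 and 600 bp and above them from 600 to 1000 bp, in both groups.

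The starts with the highest pooled levels differed in where their covered cytosines lay. The Rps12 window, which belongs to a small subunit protein of the 40S head, had 30.0%, 12.6%, 14.3%, 16.1% and 16.6% in control and 16.8%, 17.7%, 13.8%, 18.9% and 17.8% in arsenic. Control library 1 was the highest of all 10, and the other 9 lay between 12.6% and 18.9%. All 13 of its cytosines lay 734 to 940 bp into the gene, and none was covered near the start. In the Rpl41 window, at 14.7% ± 5.34 in control and 16.1% ± 2.53 in arsenic, 10 of 11 cytosines lay 837 to 970 bp into the gene, with a control mean of 12.8%, and 1 lay at -750 bp, before the start, with 90.7%. The Rpl7a window lay at 12.1% ± 2.35 in control and 14.4% ± 1.77 in arsenic. Its plus-strand cytosines had 3.43% ± 2.38 in control from 358 to 572 bp and 24.5% ± 5.96 from 767 to 829 bp.

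The Rps24 start window had 37.6%, 44.7%, 48.8%, 46.2% and 46.6% in control and 35.1%, 47.0%, 49.1%, 32.9% and 45.8% in arsenic. The groups overlapped in part: arsenic libraries 1 and 4 lay below every control library and arsenic library 3 lay above all of them. Its methylated cytosines lay at -943 to -696 bp, with run means of 60.6% to 87.7% in control and 54.6% to 81.8% in arsenic. From 66 to 169 bp after the start, 9 cytosines had 1.09% ± 1.15 in control and 1.12% ± 0.473 in arsenic. The Rps24 promoter printed above is that of another RefSeq start, 75 bp after the one from which these distances run. Its covered CpGs lay in this low stretch.

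Rpl22 was the 1 member, of 33 with covered CpGs in a RefSeq promoter, with a methylated one. It is a large subunit protein that mice can live without and that has a close paralog, Rpl22l1. Its window had 52.3%, 62.6%, 54.8%, 55.8% and 52.9% in control and 49.0%, 47.4%, 57.0%, 63.6% and 66.0% in arsenic, so that the arsenic libraries spread more widely around a like mean. Around the upstream start, at -75 to -14 bp, 4 CpGs had 92.4% ± 1.12 in control and 94.9% ± 1.60 in arsenic. The level was 80.4% ± 0.314 and 78.9% ± 3.77 from 100 to 174 bp, and 19.0% ± 4.45 and 14.8% ± 3.94 from 337 to 612 bp. RefSeq lists another start of Rpl22 1290 bp downstream, and 27 CpGs from 332 to 826 bp after it had 3.23% ± 2.47 in control and 2.59% ± 2.12 in arsenic. The level was thus lower after the downstream than around the upstream start in all 10 libraries, the highest value after the downstream start being 6.14% and the lowest around the upstream start 90.7%. Rps2, which had no measured end, had a RefSeq start 1942 bp inside its outermost coordinate, and 35 CpGs around that start lay at 1.24% in control and 1.12% in arsenic.

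**Figure D3:**
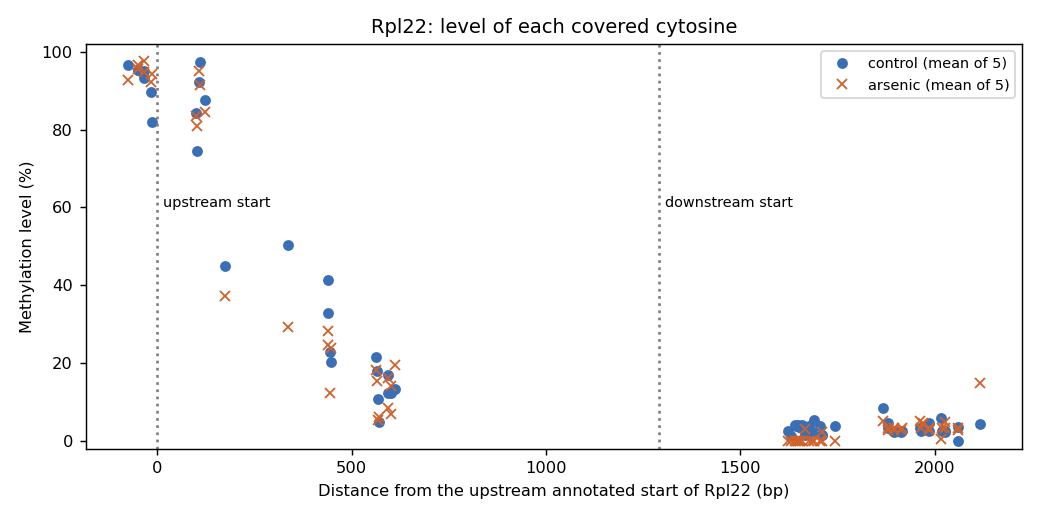
Mean methylation level (percent) of each covered cytosine of Rpl22 by distance (bp) from its upstream annotated start, in 5 control libraries (blue circles) and 5 arsenic libraries (orange crosses). Dotted lines mark the upstream and the downstream start; cytosines near the former lie above 80% in most cases, those between 337 and 612 bp lie lower, and those after the latter lie near 0%.

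No ribosomal protein gene end was called between control and arsenic with libraries as the replicates. Each end was tested with a quasi-binomial model of methylated out of all reads, fitted over 17548 autosomal protein-coding gene ends, and called where the Benjamini-Hochberg (BH) adjusted p was under 0.05 and the groups were 10 percentage points or more apart. The test called 0 of 83 members, with a background of 0% of all ends, and 0 had an adjusted p under 0.05 at any difference (0% of all ends); limma, run on the log2 ratio of both read classes, also gave 0. A binomial test on single reads, which ignores how far libraries of 1 group differ, called 1 of 83 members (1.20%, with a background of 0.558%). With that test 42 of 83 had an adjusted p under 0.05 (50.6%, with a background of 52.2%), and at an unadjusted p under 0.05, 23 lay lower (27.7%, with a background of 34.2%) and 23 higher (27.7%, with a background of 22.6%). In the quasi-binomial model, the lowest adjusted p of a member was 0.594, beside 0.422 over all ends. At an unadjusted p under 0.05, 6 members lay lower in arsenic (7.23%, with a background of 4.38%) and 4 lay higher (4.82%, with a background of 1.95%). The median difference over the members was -0.105 percentage points, beside -0.244 over all ends, and 43 of 83 members lay lower (51.8%, beside 56.8%). Differences of less than 1 point separated the groups at 30 of 48 starts (62.5%, beside 51.6% of other starts), and across all starts they ran from -3.09 to 3.30 points.

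Rpl4, a large subunit protein that lines the tunnel through which the new peptide leaves, had the smallest p. Its start window held 36 CpGs, with a summed coverage of 1475 to 2272 per library, and also contained an end of Zwilch. The levels were 2.67%, 1.02%, 1.32%, 4.58% and 1.86% in control and 0.493%, 0.239%, 0.504%, 0.466% and 0.20% in arsenic. All arsenic libraries lay below all control libraries, which made it the 1 member of 83 whose groups did not overlap in the lower direction (background 0.627%); 0 did not overlap in the higher direction (background 0.308%). The difference was -1.91 points, with an unadjusted p of 0.00146 and an adjusted p of 0.594 in the quasi-binomial model. Control library 4 was highest, and on 20 plus-strand cytosines at -566 to -392 bp it had 7.78% against 0.328% to 2.08% in the other control libraries. Without control libraries 4 and 5 the difference was -1.29 points, with an adjusted p of 0.744.

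Rpl31, a large subunit protein at the mouth of the exit tunnel, was next. Its start window, with 30 CpGs, had 10.1%, 6.73%, 8.23%, 11.7% and 10.2% in control and 5.65%, 6.35%, 7.50%, 5.30% and 6.74% in arsenic. The lowest control library, number 2, lay below the 2 highest arsenic libraries, and the other 4 control libraries lay above all arsenic libraries. The difference was -3.09 points (unadjusted p = 0.00891, adjusted p = 0.723, quasi-binomial model). Among its runs of neighbouring cytosines the groups were farthest apart on 13 minus-strand cytosines 200 to 414 bp after the start, with a median coverage of 16 reads. There, control libraries 1, 4 and 5 had 17.4%, 24.0% and 24.6%, control libraries 2 and 3 had 0.556% and 0%, and the arsenic libraries had 0% to 1.30%. On the plus strand, 5 cytosines from 285 to 337 bp had 0% to 7.06% in control and 0% to 2.59% in arsenic. Control libraries 1, 4 and 5 had 1.73%, 0% and 7.06% there. The 2 runs differ in span and in number of cytosines, and a difference between the strands was not tested. On the plus strand from 575 to 654 bp the order of the groups was the opposite. There, 3 cytosines had 0% in all 5 control libraries and 16.7%, 0%, 10.7%, 0% and 9.23% in arsenic libraries 1 to 5. Farther in on the minus strand, from 739 to 929 bp, both groups lay at 6.06% to 13.7%. Without control libraries 4 and 5, which stood apart over all cytosines, the window difference was -2.06 points.

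**Figure D4:**
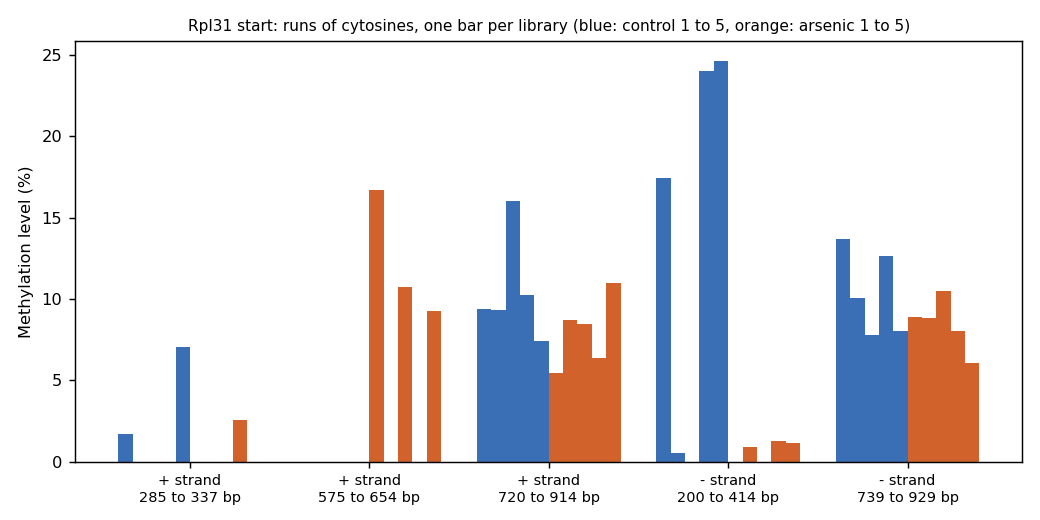
Methylation level (percent) of runs of covered cytosines in the Rpl31 start window, by strand and distance from the start (bp), with 1 bar for each control library (blue) and each arsenic library (orange), a missing bar being 0%. In the minus-strand run from 200 to 414 bp, control libraries 1, 4 and 5 reach 17.4% to 24.6%, whereas control libraries 2 and 3 and all arsenic libraries lie at or below 1.30%.

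Rps14 and Rpl32 were also among the 5 ends with the smallest p that lay lower in arsenic. Rps14, the small subunit gene lost in the human 5q deletion syndrome, had 3.55%, 0.565%, 3.75%, 0.599% and 1.83% in control and 0.227%, 0.470%, 1.21%, 1.33% and 0.967% in arsenic at its lower coordinate. Control libraries 2 and 4 lay within the arsenic range (difference -1.22 points). Rpl32, a large subunit protein, had 0.580%, 0.759%, 0.765%, 5.96% and 2.03% in control and 0.216%, 0.556%, 1.03%, 0.391% and 0.324% in arsenic at its higher coordinate. Only control libraries 4 and 5 lay above the arsenic range there, and without them the difference was -0.198 in place of -1.52 points.

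Among the 5 ends with the smallest p that lay higher in arsenic were those of Rpl12, Rps20 and Rps21. Rpl12, which forms the base of the ribosomal stalk, had 8.14%, 7.44%, 10.9%, 9.81% and 7.72% in control and 14.4%, 12.3%, 8.03%, 13.1% and 12.7% in arsenic at its start (difference 3.30 points, unadjusted p = 0.0352 and adjusted p = 0.766 in the quasi-binomial model). In arsenic, 4 of 5 libraries lay above all control libraries. In its run of 6 plus-strand cytosines 781 to 900 bp after the start the means were 44.2% ± 7.55 and 53.2% ± 2.43. On the same strand from 353 to 481 bp they were 0.804% ± 0.746 and 4.64% ± 3.65. There, arsenic library 1 had 11.1% and the other arsenic libraries 2.41% to 3.62%. On the minus strand, 13 cytosines from 360 to 522 bp had 2.66% ± 2.04 in control and 3.10% ± 1.66 in arsenic. The Rpl12 window also held an end of Lrsam1.

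Rps20, a small subunit protein that is marked with ubiquitin when ribosomes collide, had 0.898%, 0.673%, 1.76%, 0.536% and 0.916% in control and 3.28%, 1.16%, 3.23%, 1.14% and 2.43% in arsenic at its higher coordinate. Arsenic libraries 1, 3 and 5 lay above all controls (difference 1.29 points, unadjusted p = 0.0294, quasi-binomial model). Rps21 had 0.916%, 1.31%, 0.404%, 1.69% and 0.309% in control and 0.972%, 3.17%, 3.08%, 2.41% and 1.31% in arsenic in its end window, and 1.19% ± 0.456 against 2.27% ± 1.27 in its start window. All 38 cytosines of the end window of Rps21 also lie in its start window, so the 2 windows are not independent. In the minus-strand run of 11 shared cytosines, 273 to 413 bp after the start, arsenic libraries 1 to 3 had 2.47%, 7.30% and 5.78%, while the other 7 libraries lay at or below 0.568%. In the run of 24 plus-strand cytosines from -25 to 266 bp the groups were alike, with 1.41% ± 1.32 in control and 1.39% ± 1.16 in arsenic. Over the whole start window arsenic library 5 was highest with 4.22%, and arsenic library 1 had 0.774%.

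**Figure D5:**
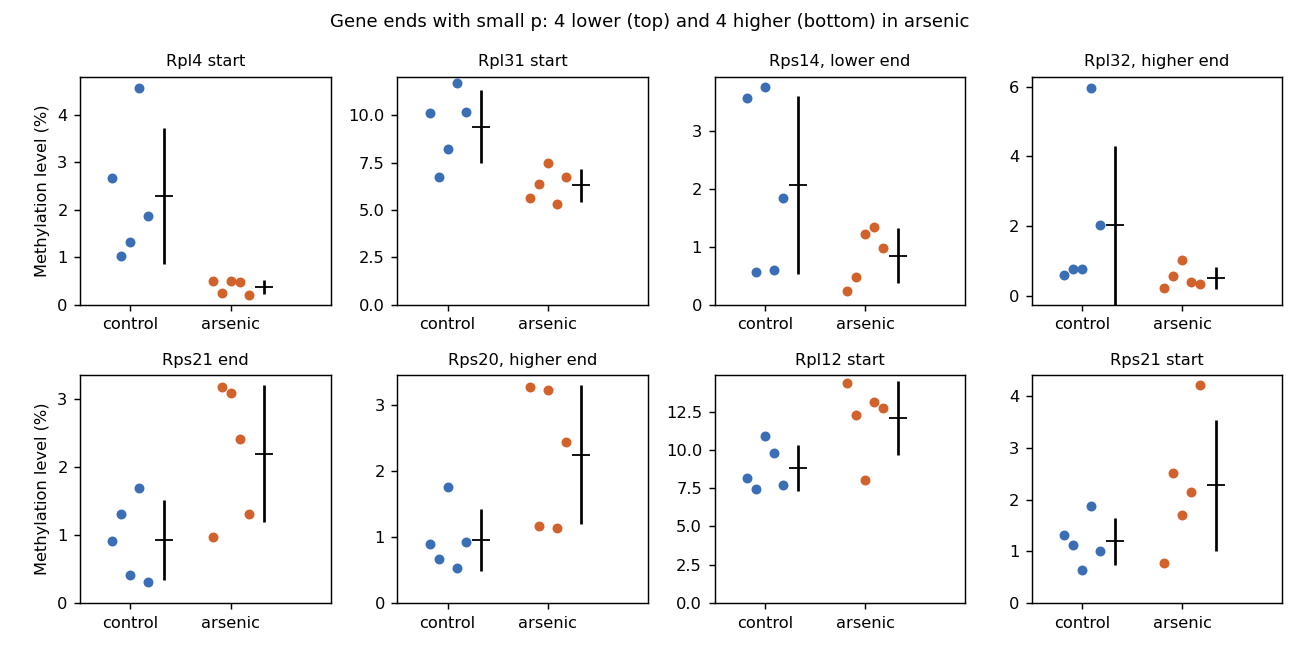
Methylation level (percent) in each library of 4 gene ends among those with the smallest p that lay lower in arsenic (top row) and 4 that lay higher (bottom row); blue points are control libraries 1 to 5, orange points arsenic libraries 1 to 5, and black bars mean ± SD. The groups are separate in the Rpl4 panel alone, and the scales differ between panels.

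Among single cytosines, 0 of 3039 in the member windows were called, with a background of 0% of 1988759, and the lowest adjusted p was 0.638, as over all cytosines. The binomial test called 72 (2.37%, with a background of 4.14%). In the quasi-binomial model, at an unadjusted p under 0.05, 164 lay lower in arsenic (5.40%, with a background of 4.36%) and 105 higher (3.46%, with a background of 3.38%). The groups did not overlap at 1 cytosine that was lower (background 0.300%) and 4 that were higher (background 0.228%). The 3 with the smallest p in the lower direction lay at -386 bp from the start of Rpl7a (chr2:26910299, 6.97% ± 4.32 in control) and 338 and 414 bp after that of Rpl31 (chr1:39368189, 13.9% ± 13.1, and chr1:39368265, 17.3% ± 12.7). All arsenic libraries had no methylated read at these 3. Of the 3 in the higher direction, 2 lay at Rpsa (chr9:120128023, 9.95% ± 9.50 in arsenic) and Rps18 (chr17:33955964, 4.79% ± 4.02), and had no methylated read in any control library. Rps18 is a small subunit protein and Rpsa is known both as a small subunit protein and as a laminin receptor. Coverage at these 5 cytosines was 10 to 90 reads.

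The 3 starts with the most CpGs were those of Rps19, Rps25 and Rpl28. The Rps19 start, with 60 CpGs, had 3.45%, 5.27%, 3.48%, 5.37% and 5.80% in control and 4.46%, 4.48%, 3.57%, 3.47% and 5.16% in arsenic. Control libraries 2, 4 and 5 lay above all arsenic libraries. Rps25, a small subunit protein used in initiation at internal ribosome entry sites, had 0.917%, 0.553%, 3.27%, 1.28% and 4.69% in control and 2.05%, 1.63%, 1.84%, 0.740% and 1.28% in arsenic over 59 CpGs. Its window also held an end of Trappc4. The Rpl28 start, with 58 CpGs, had 4.90% ± 1.83 in control and 4.62% ± 0.640 in arsenic. Its last stretches, 886 to 939 bp into the gene, had 67.0% to 76.0% in control and 66.4% to 86.4% in arsenic. Starts with the widest spread over libraries, beside Rpl22, Rps24 and Rps12, were those of Rps16 and Rpl24. Rps16, a small subunit protein, had 9.89%, 0%, 0%, 2.68% and 1.20% in control and 12.3%, 1.19%, 14.4%, 0.541% and 0% in arsenic over 9 CpGs. Rpl24, the large subunit protein lost in the Belly spot and tail mouse, had 8.89%, 1.03%, 0.285%, 0.50% and 1.14% in control and 0%, 0%, 1.21%, 13.6% and 0% in arsenic over 11 CpGs. At Rps16, arsenic libraries 1 and 3 and control library 1 were high. At Rpl24, 1 library of each group was high and the other 8 lay at or below 1.21%. Both windows were shallow, with a coverage that summed to 107 to 203 per library at Rps16 and 119 to 496 at Rpl24. The median coverage of a cytosine at Rps16 was 18 reads.

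Related genes that the naming rule leaves out were described by the same measure. None of their ends had an adjusted p under 0.05. Of the paralogs with symbols ending in l, with or without a final digit, 10 ends of 6 genes were measured. Of these, 9 of 10 lay lower in arsenic, beside 56.8% of all ends, with a median difference of -1.10 points. In the quasi-binomial model 3 had an unadjusted p under 0.05 in the lower direction (30.0%, with the background of 4.38%). Both ends of Rpl10l, and both of Rpl36al, lie close enough for their windows to overlap, so these ends are not independent. The 3, named after their values were seen, were the starts of Rpl22l1 (4.87% ± 2.53 in control and 1.02% ± 0.703 in arsenic), Rpl39l, a testis-enriched copy of Rpl39 (15.5% ± 2.69 and 9.68% ± 2.97), and Rpl36al (2.51% ± 0.482 and 1.48% ± 0.793). The Rpl10l start, of a retrocopy that replaces X-linked Rpl10 in meiosis, lay at 21.9% ± 6.68 and 18.7% ± 5.90. Of 54 mitochondrial ribosomal protein starts, 45 lay under 5%, with a median of 2.23% in control and 1.77% in arsenic. Translation factor starts had medians of 2.01% and 2.14% (23 starts), and those of ribosome assembly genes 2.35% and 1.68% (21 starts). Unadjusted p under 0.05 was reached by 4 lower and 4 higher of 87 ends of the mitochondrial ribosomal proteins, by 1 and 1 of 36 ends of the translation factors and by 1 and 2 of 33 ends of the ribosome assembly genes, beside 4.38% lower and 1.95% higher of all ends.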

How the data were processed

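RRBS libraries of testis DNA, 5 control and 5 arsenic, were grouped and numbered by their titles. The submitters' processing notes name Trim Galore 0.6.5, Bismark 0.22.3, methylKit 1.22.0 and mm10, with no settings for them. Per the file headers, the authors' deposited table holds read counts per cytosine and library (all, methylated and unmethylated reads), not normalised, with a coverage of at least 10 in each library. Gene ends and strands came from RefSeq tables on GRCm38.p6; exons and introns were not used here. Reads were pooled per gene end, and a level is the percentage of methylated reads. The quasi-binomial model has a group term and a Pearson dispersion squeezed by limma 3.58.1 (R 4.3.3) and not under 1. It was fitted to all gene ends or cytosines, tested with an F test and BH-adjusted. Python 3.11.15 with numpy 2.4.6 and pandas 2.3.3 did the rest. The scripts were tested on simulated data.

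The named ends are those with the 5 smallest p in each direction, the 5 highest and the 5 most variable starts, the 3 highest and the 3 lowest 3 prime windows, the 3 starts with the most CpGs and, of single cytosines, 3 per direction, again by p. Some items that this rule or the lists name are not reported here. The members and lists were chosen with earlier results of these data known. The lists were the subunits, the stalk, 4 X-linked genes, 8 paralogs, mitochondrial ribosomal proteins, translation factors, ribosome assembly genes, and germ cell, maternally imprinted and somatic markers. The X-linked starts of Rpl39 and Rps4x lay at 4.63% and 2.20%, and the imprinted genes had a mean of 12.0% in control and 9.74% in arsenic. Alternatives were another coverage minimum, window, CpG minimum, weighting or test, a replicate block, left-out libraries and the RefSeq promoter starts.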

Additional observations from a re-analysis of the deposited data

Results flagged for a closer look

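In 7 of 50 groups of 5 libraries of named gene ends, 1 library lay far from the other 4; chance flags about 1 in 20 groups. Several of these ends were named for their wide spread or small p, so this rate does not apply to them and the count is no test. At the Rpl24 start this was control library 1 with 8.89% (the others 0.285% to 1.14%) and arsenic library 4 with 13.6% (the others 0% to 1.21%). At the Rpl32 higher coordinate it was control library 4 with 5.96% (the others 0.580% to 2.03%). At the Rpl7a start it was arsenic library 3 with 17.5% (the others 13.4% to 14.1%). Control library 1 was high at the Rps12 start with 30.0% (the others 12.6% to 16.6%) and at the Rps16 start with 9.89% (the others 0% to 2.68%). At the Rps18 end it was arsenic library 5 with 12.5% (the others 2.73% to 5.53%).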

How the results depend on the processing

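No alternative except the binomial test, which takes reads as replicates, gave a call among the members. The binomial test called 1 end (1.20%, beside 0.558% of all ends) and 72 cytosines (2.37%, beside 4.14% of all cytosines). It gave 42 of 83 ends an adjusted p under 0.05 (50.6%, beside 52.2% of all ends). At an unadjusted p under 0.05 it gave 23 lower ends (27.7%, beside 34.2%) and 23 higher ends (27.7%, beside 22.6%). The count of lower ends at that p was 3 with limma and 3 to 7 with 1 library left out; the count of higher ends was 2 without control libraries 4 and 5, 1 at a coverage of at least 20, 1 with 500 bp windows and 1 to 6 with 1 library left out. The mean start level of 6.51% became 7.45% at a coverage of at least 20, 3.79% with 500 bp windows and 5.43% with RefSeq promoter starts, an alternative chosen after seeing the data; it was 6.42% to 6.56% with 1 library left out. The median difference of the members was -0.125 to 0.193 points with 1 library left out. It was 0.225 without control libraries 4 and 5, so that its sign is not settled. Over all ends the median was -0.309 to -0.0576 points with 1 library left out, but 0.117 without control libraries 4 and 5. At a coverage of at least 20 the members had -0.362 and all ends -0.202 points.

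Same-numbered libraries did not deviate together (correlation -0.0126 to 0.0292), and 1 of 5 controls correlated best with its own number; with the replicate number as a block 5 ends lay lower and 3 higher at an unadjusted p under 0.05 and 0 passed the adjusted p. Of 25 named ends, 14 kept their direction under every alternative. The difference reversed for Rpl22 (-1.20 at a coverage of at least 20, -0.743 with 500 bp windows, -1.96 with each cytosine weighted equally), Rps12 (1.58) and Rps19 (0.0623) at that coverage, Rpl7a (-0.447) and the Rps24 start (0.0249) with 500 bp windows, and Rpl24 (-0.445), Rpl28 (0.473) and Rps19 (0.161) without control libraries 4 and 5; the cause was not tested. With 1 library left out the differences ran from -2.22 to 2.12 at Rps12, -1.69 to 0.845 at the Rps24 end, -1.36 to 0.997 at the Rpl38 end, -0.0779 to 3.27 at the Rpl41 start, -0.710 to 0.469 at Rpl28, -1.03 to 0.00265 at Rps25, -1.40 to 3.25 at Rpl22 and -2.07 to 2.22 at Rpl24. The lowest adjusted p of a named end was 0.249 under any of these, limma included, apart from the binomial test. With limma the lowest adjusted p over all gene ends was 0.181.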
